A study of Homo sapiens with 6 samples.

Results

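The transsulfuration, glutathione and NRF2 genes followed here were CBS, CTH, GCLC, GCLM, GSS, CHAC1, NQO1, TXNRD1, SRXN1 and HMOX1, 10 of the 20045 genes that had a probe with a single symbol on the array. They were chosen by their place in 1 pathway with results of the same arrays in view, and the measured value that led to the choice was the signal of CHAC1 with miR-638 against mock, which was known to be high. Every probe that the platform annotation gives to 1 of these symbols was taken, which made 16 probes. The values of CHAC1 in comparisons with miR-638 are therefore given as a description, without a test, and the tests of the other members set their differences beside the spread between arrays but are no independent support for the choice.

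Transcript levels came from 6 arrays (Illumina HumanHT-12 v4) of SK-Mel-147, a human melanoma cell line, all at 48 h from transfection. Cells received a miR-638 mimic (2 arrays), the miR-638 inhibitor antagomiR-638 (2 arrays) or the control treatment (2 arrays), and no other agent or genotype separated the groups. The sources differ on the control: the sample titles call these cells mock-transfected, their protocol names the transfection reagent, the series description and the data headers point to a non-targeting control, and a legend of the study names a control antagomiR. They are called mock here. The arrays are duplicates that no label ties to separate cultures, so p-values measure only the spread between these arrays, which may be technical. All cells were of 1 line, and with so few arrays no value is precise.

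Per array, between 19794 and 20890 of 47319 probes were detected, meaning that the deposited detection p was under 0.05. The correlation of log2 signal between arrays was 0.994 to 0.995 within a group and 0.976 to 0.988 between groups. Of 12 melanocyte lineage genes checked, 11 had a probe and only EDNRB, MITF and SOX10 were detected on every array; PMEL, MLANA, TYR and TYRP1, which define pigmented melanocytes, did not pass the detection filter. Of the leukocyte, fibroblast and keratinocyte lists, CD14, LUM and KRT10 alone were detected on every array. The summed fibroblast signal, carried by LUM, was 448 to 473 in miR-638 cells, 736 to 773 in antagomiR-638 cells and 611 to 612 in mock cells, and COL1A1, COL1A2, COL3A1, DCN and PDGFRB did not pass the filter. The part of LUM in the results below was not tested.

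Transsulfuration turns homocysteine, a product of methionine, into cysteine: cystathionine beta-synthase (CBS) makes cystathionine, and cystathionine gamma-lyase (CTH) splits it to release cysteine. Glutamate-cysteine ligase, built from the catalytic subunit GCLC and the modifier GCLM, joins cysteine to glutamate, and glutathione synthetase (GSS) adds glycine to give glutathione, the main thiol antioxidant of the cell. CHAC1 degrades glutathione in the cytosol. NRF2, encoded by NFE2L2, is held down by KEAP1 and drives genes with antioxidant response elements, among them NQO1, TXNRD1, SRXN1, HMOX1, GCLC and GCLM. CHAC1 and CTH are also known to be driven by ATF4, a transcription factor that answers to amino acid shortage.

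The mature microRNA given to the cells is shown because every comparison turns on it. Its seed, bases 2 to 8, is in capitals. RefSeq places it at chr19:10718419-10718443 on the plus strand of GRCh38.p14, and it has 25 bases.
hsa-miR-638: aGGGAUCGcgggcggguggcggccu

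Promoter windows of 300 bases, reaching 250 bases before the start site, were found in the RefSeq table for 8 of the 10 members, 11 windows in all, since CBS had 3 and TXNRD1 had 2. GSS and HMOX1 were not matched. Windows are shown for the members whose signal differed most between groups. The motifs searched on both strands were TGACNNNGC, the core of the antioxidant response element, TGATGNAA, a C/EBP-ATF response element, and TGACGTCA, the cyclic AMP response element, and no match of one overlapped a match of another. Capitals mark a match, and a match is a description of letters, not of a bound site. The CHAC1 window lies at chr15:40953221-40953520 (plus strand), the CTH window at chr1:70411018-70411317 (plus strand), the first CBS window at chr21:43076328-43076627 (minus strand) and the first TXNRD1 window at chr12:104215529-104215828 (plus strand), all in GRCh38.p14.
CHAC1: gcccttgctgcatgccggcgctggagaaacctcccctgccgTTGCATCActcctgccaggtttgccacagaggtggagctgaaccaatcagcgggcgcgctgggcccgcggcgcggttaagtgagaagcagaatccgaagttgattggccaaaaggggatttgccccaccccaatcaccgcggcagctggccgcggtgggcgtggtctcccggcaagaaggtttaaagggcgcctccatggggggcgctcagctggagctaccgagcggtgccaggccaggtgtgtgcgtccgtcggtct
CTH: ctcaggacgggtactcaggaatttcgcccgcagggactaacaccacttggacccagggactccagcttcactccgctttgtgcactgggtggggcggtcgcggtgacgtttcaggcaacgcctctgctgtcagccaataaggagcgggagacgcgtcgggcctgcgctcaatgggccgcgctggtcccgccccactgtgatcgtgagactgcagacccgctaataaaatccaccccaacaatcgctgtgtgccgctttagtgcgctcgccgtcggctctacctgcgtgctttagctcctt
CBS: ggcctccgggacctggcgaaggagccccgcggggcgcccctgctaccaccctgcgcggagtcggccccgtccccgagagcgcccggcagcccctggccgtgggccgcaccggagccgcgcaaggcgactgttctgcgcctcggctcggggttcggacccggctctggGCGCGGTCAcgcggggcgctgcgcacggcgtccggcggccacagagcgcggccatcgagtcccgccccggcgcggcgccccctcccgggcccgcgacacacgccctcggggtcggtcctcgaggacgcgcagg
TXNRD1: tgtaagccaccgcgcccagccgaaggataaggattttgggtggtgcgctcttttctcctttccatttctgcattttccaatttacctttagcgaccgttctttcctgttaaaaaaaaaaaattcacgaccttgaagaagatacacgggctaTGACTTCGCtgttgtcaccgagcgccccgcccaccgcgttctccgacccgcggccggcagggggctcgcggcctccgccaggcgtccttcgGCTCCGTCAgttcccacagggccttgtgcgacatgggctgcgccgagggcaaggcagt

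The C/EBP-ATF element was found in 1 of the 11 windows, that of CHAC1, at positions -209 to -202 from the start, and in 3.62% of the 35116 promoter windows of the table. The antioxidant response element core was found in 4 of the 11 windows and in 13.3% of all windows. These 4 were the first of CBS, that of GCLM and both of TXNRD1, and the first TXNRD1 window held 2 matches. The cyclic AMP response element was found in 0 of the 11 windows and in 1.85% of all. The windows of CTH, GCLC, NQO1 and SRXN1 held none of the 3 letter patterns, which says only that these letters are not in these 300 bases.

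Of the 16 probes, 15 passed the filter, which asked for detection on both arrays of some group. The exception was the second probe of GCLC, whose intensity was 4.47 and 10.1 in miR-638 cells, 5.65 and 8.15 in antagomiR-638 cells and 15.9 and 6.71 in mock cells. CHAC1 and the first probe of CTH passed only through the miR-638 arrays, where they were high, so that counts over the probes that passed give no support of their own. Intensities are deposited values on a linear scale, with background already subtracted. Differences are on the log2 scale after an offset of 16, which pulls the differences of dim probes toward 0. Folds and levels relative to another group are fitted values taken from these differences. For dim probes they lie nearer to no change than the ratios of intensity. A probe was called when its adjusted p (limma, Benjamini-Hochberg over all 20145 probes that passed) was 0.01 or less. Since the values had been scaled to a common distribution by the authors, an overall rise or fall of RNA cannot be read from these data, and fewer transcripts per cell cannot be told apart from fewer cells that express them.

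**Figure D1:**
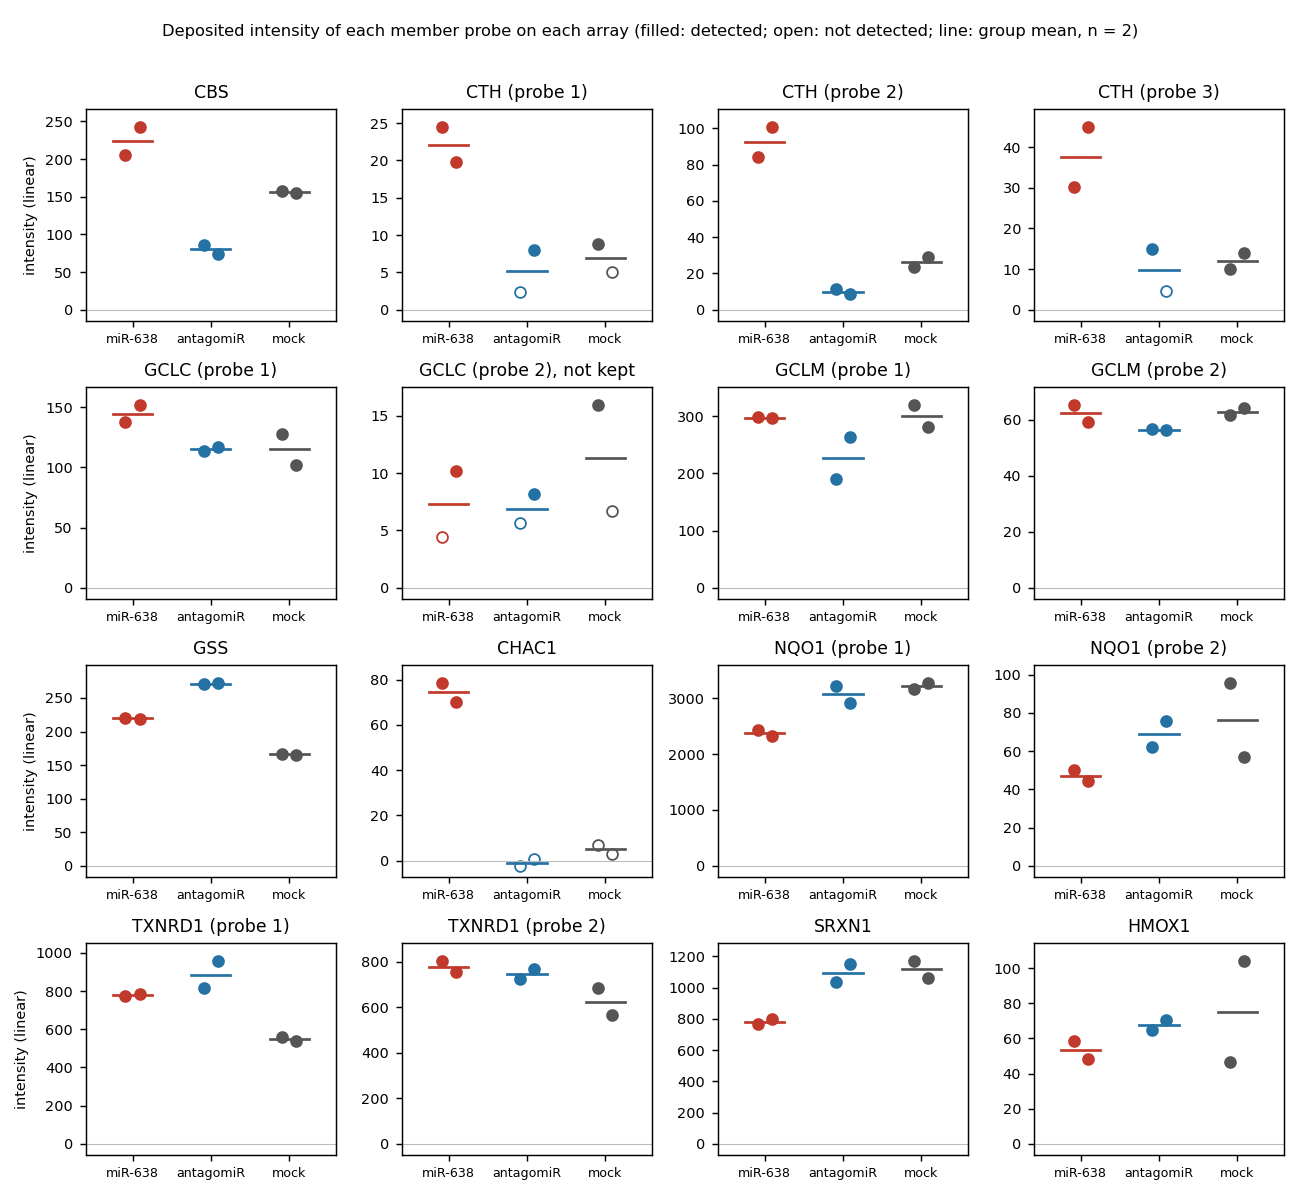
Deposited linear intensity (vertical axis) of each of the 16 member probes on each of the 6 arrays, with miR-638, antagomiR-638 and mock cells from left to right. Filled points are detected, open points are not, and lines are group means (n = 2). CBS, CHAC1 and all 3 CTH probes are highest in miR-638 cells, while NQO1 and SRXN1 are lowest there.

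CHAC1 and the first CTH probe are left out of the counts that follow, which cover the other 13 probes. With miR-638 against mock, 1 of the 13 was called higher, the second CTH probe, and 0 were called lower. Over all probes that passed, 1.44% were called higher and 0.918% lower in this comparison, and since the members were chosen with its results in view nothing is read from the difference. At an unadjusted p under 0.05, limma had 7 of the 13 higher and 3 lower, where 13.2% of all probes were higher and 12.4% lower. The arrays of the 2 groups did not overlap at 10 of the 13, nor at 54.3% of all probes. The median log2 difference was 0.30 over the 13 probes and -0.01 over all probes.

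With antagomiR-638 against mock, 2 of the 13 were called higher (GSS and the first TXNRD1 probe) and 2 lower (CBS and the second CTH probe), where 4.53% of all probes were called higher and 4.25% lower. With unadjusted p under 0.05 the counts were 2 higher and 3 lower, against 17.4% and 17.8% of all probes. The groups did not overlap at 7 of the 13, nor at 62.6% of all probes, and the median was -0.07 over the 13 and -0.01 over all. All 4 calls were lost when either array of antagomiR-638 or either array of mock was left out. With miR-638 against antagomiR-638, 3 of the 13 were called higher, CBS and the second and the third CTH probes, and 0 lower, where 6.35% of all probes were called higher and 6.32% lower. Before adjustment, limma gave p under 0.05 to 4 higher and 3 lower, against 19% and 18.2% of all probes. The groups did not overlap at 12 of the 13, nor at 63.6% of all probes, and the median was 0.06 over the 13 and 0.01 over all. The mock arrays serve in both of their comparisons, and each treatment is in 2 of the 3 comparisons, so their values are set side by side and not counted as separate evidence.

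**Figure D2:**
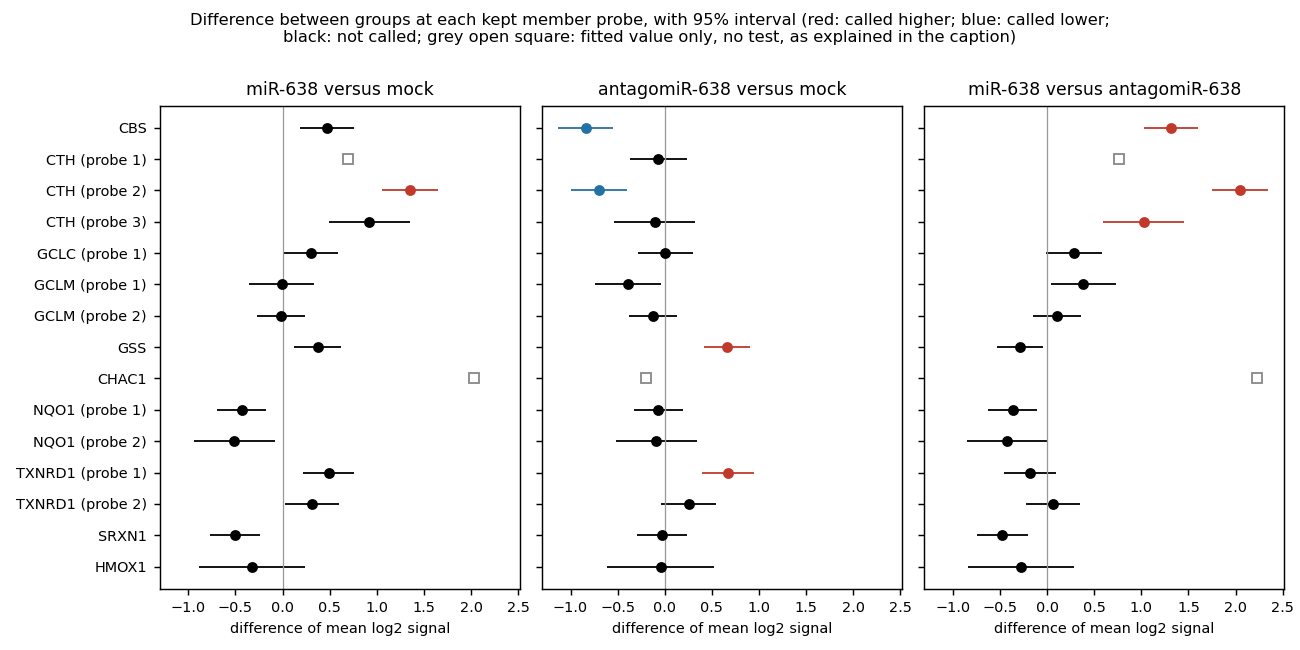
Difference of mean log2 signal (horizontal axis) at each of the 15 member probes that passed the filter, one panel for each of the 3 comparisons, with the first-named group minus the second. Bars are 95% intervals from limma. Red is called higher, blue called lower and black not called; CHAC1 in every panel and the first CTH probe with miR-638 are open grey squares without a bar, since they are not tested there: both passed the filter only through the miR-638 arrays. The second CTH probe lies at 1.35 with miR-638 and at -0.69 with antagomiR-638, against mock.

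Both transsulfuration enzymes had their highest group mean in miR-638 cells and their lowest in antagomiR-638 cells. At the first and the third CTH probes, however, antagomiR-638 and mock arrays overlapped. CBS, the first enzyme of the route, had intensities of 205 and 242 in miR-638 cells, 86.5 and 74.1 in antagomiR-638 cells and 157 and 155 in mock cells. No array of one group overlapped another. CBS fell by 0.84 on the log2 scale in antagomiR-638 cells against mock (SE 0.13, 95% interval -1.13 to -0.55, adjusted p = 0.00228 by limma), a fitted level of 0.558 times mock. The call was lost without either antagomiR-638 array or either mock array, with adjusted p up to 0.0274. In miR-638 cells against mock it differed by 0.47 (SE 0.13, adjusted p = 0.052 by limma), which was not called. Between miR-638 and antagomiR-638 cells it differed by 1.31 (SE 0.13, adjusted p = 0.00016 by limma), a 2.49-fold higher level in miR-638 cells. That call was kept whichever array was left out. Both CBS calls were lost with intensities floored at 16 in place of the background model and with a plain linear model without shrinkage.

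CTH, the enzyme that releases cysteine, was read by 3 probes, of which the second and the third are annotated to a different transcript record from the first. The second probe had 84.3 and 100.5 in miR-638 cells, 11.3 and 8.75 in antagomiR-638 cells and 23.8 and 29.1 in mock cells. It was detected on all 6 arrays, and the 3 groups were fully apart. It rose by 1.35 in miR-638 cells against mock (SE 0.13, 95% interval 1.06 to 1.65, adjusted p = 7.02e-04 by limma), a 2.56-fold higher fitted signal. Without miR-638 replicate 2 the adjusted p was 0.0104, and with intensities floored at 16 in place of the background model it was 0.0284 at a difference of 1.81. In antagomiR-638 cells its mean intensity was 10.0, against 26.4 in mock cells. The fall there was 0.69 against mock (SE 0.13, adjusted p = 0.00617 by limma), a fitted level of 0.618 times mock. That call was lost without either array of antagomiR-638 or of mock, with adjusted p up to 0.0543, and an offset of 50 shrank the difference to -0.34. Between miR-638 and antagomiR-638 cells the second probe differed by 2.05 (SE 0.13, adjusted p = 2.67e-05 by limma), a 4.14-fold higher fitted signal in miR-638 cells. With an array left out, this difference ran from 1.94 to 2.16.

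The other CTH probes were dim. The first had 24.4 and 19.8 in miR-638 cells, 2.44 and 8.07 in antagomiR-638 cells and 8.82 and 5.01 in mock cells, and was not detected on 1 antagomiR-638 array and 1 mock array. The third had 30.1 and 44.9 in miR-638 cells, 15.0 and 4.62 in antagomiR-638 cells and 9.97 and 14.1 in mock cells, and was not detected on 1 antagomiR-638 array. At both probes the miR-638 arrays lay above all others, while antagomiR-638 and mock arrays overlapped. Having passed the filter only through the miR-638 arrays, the first probe is not tested for its height there. Its difference with miR-638 was 0.69 against mock and 0.76 against antagomiR-638. The third probe differed with miR-638 by 0.92 against mock (adjusted p = 0.0207 by limma), which was not called. Against mock, the differences with antagomiR-638 were -0.07 at the first and -0.11 at the third, with 95% intervals of -0.37 to 0.24 and -0.54 to 0.33. Their mean log2 signals in mock cells were 4.555 and 4.805, where the lowest detected signals on the mock arrays were 4.567 and 4.578. So close to that floor, a fall like that of the second probe could not show, and these probes do not tell whether it occurred. Between miR-638 and antagomiR-638 cells the third was called higher, by 1.02 (adjusted p = 0.00447). It lost this call without miR-638 replicate 2 or antagomiR-638 replicate 2, with adjusted p up to 0.0424.

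Of the glutathione synthesis genes, GSS alone was called against mock. GSS, which completes glutathione, had 221 and 218 in miR-638 cells, 271 and 272 in antagomiR-638 cells and 166 on both arrays of mock cells. Mock cells were lowest and antagomiR-638 cells highest, with duplicates that lay close together. GSS rose by 0.66 in antagomiR-638 cells against mock (SE 0.11, 95% interval 0.41 to 0.91, adjusted p = 0.00343 by limma), a 1.58-fold higher signal. With each of the 4 arrays of these groups left out in turn, the adjusted p was 0.0206 to 0.031, at the same difference of 0.66. In miR-638 cells it differed from mock by 0.37 (SE 0.11, 95% interval 0.12 to 0.62, adjusted p = 0.067), which was not called, and from antagomiR-638 cells by -0.29 (adjusted p = 0.0873).

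GCLC and GCLM, whose ligase sets the pace of glutathione synthesis, were called in none of the 3 comparisons. The first GCLC probe had 137 and 152 in miR-638 cells, 113 and 117 in antagomiR-638 cells and 128 and 102 in mock cells. It was highest in miR-638 cells, by 0.30 against mock (95% interval 0.00 to 0.59, adjusted p = 0.194), while the antagomiR-638 arrays lay between the mock arrays. The first GCLM probe had 298 and 297 in miR-638 cells, 190.3 and 264 in antagomiR-638 cells and 319 and 281 in mock cells. Its duplicates in antagomiR-638 cells were far apart, and both were below all other arrays, with a difference from mock of -0.39 (95% interval -0.74 to -0.05, adjusted p = 0.103). The second GCLM probe had 65.1 and 59.3 in miR-638 cells, 56.8 and 56.1 in antagomiR-638 cells and 61.5 and 64.1 in mock cells, and its differences ran between -0.12 and 0.11. For GCLM with miR-638 against mock, the intervals were -0.36 to 0.34 and -0.27 to 0.24, so a change of the size seen at CTH lies outside them.

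CHAC1, which breaks glutathione down, had intensities of 78.5 and 70.2 in miR-638 cells, -2.44 and 0.594 in antagomiR-638 cells and 6.77 and 3.08 in mock cells. It was detected on both miR-638 arrays and on none of the other 4, where its detection p was 0.0597 or more. Its signal in miR-638 cells was at least 3.79-fold higher, both against antagomiR-638 cells and against mock cells. Each bound sets the miR-638 mean against the lowest signal that counted as detected on the arrays of the other group. Between antagomiR-638 and mock cells no fold can be given, since both were below detection. Among the other probes, the second CTH probe had the widest range of group means, 2.05 on the log2 scale, followed by CBS with 1.31, and both had their lowest mean in antagomiR-638 cells and their highest in miR-638 cells.

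Of the 4 NRF2 targets outside glutathione synthesis, TXNRD1 alone was called, at its first probe with antagomiR-638. NQO1, a quinone reductase and a standard readout of NRF2, had at its brighter probe 2435 and 2317 in miR-638 cells, 3219 and 2918 in antagomiR-638 cells and 3168 and 3267 in mock cells. Both miR-638 arrays were below all others, and the antagomiR-638 and mock arrays overlapped. The difference with miR-638 was -0.44 against mock (SE 0.12, adjusted p = 0.0484 by limma) and -0.37 against antagomiR-638 (adjusted p = 0.0462), neither called at 0.01. The dimmer NQO1 probe had 50.3 and 44.2 in miR-638 cells, 62.0 and 75.7 in antagomiR-638 cells and 95.4 and 56.7 in mock cells. Its difference from mock with miR-638 was -0.51, and with mock duplicates this far apart its 95% interval ran from -0.94 to -0.08 (adjusted p = 0.128). It was -0.20 without mock replicate 1 and -0.82 without mock replicate 2.

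SRXN1, which reactivates oxidized peroxiredoxins, had 767 and 796 in miR-638 cells, 1036 and 1149 in antagomiR-638 cells and 1167 and 1064 in mock cells. As with NQO1, the miR-638 arrays were lowest and the other groups overlapped. Its difference with miR-638 was -0.50 against mock (SE 0.12, adjusted p = 0.0322) and -0.47 against antagomiR-638 (adjusted p = 0.0185), short of the threshold. With an offset of 50, limma called it lower in both, at adjusted p of 0.00726 and 0.00384. Of 11 alternative settings at the same threshold, only 2 gave a call in each comparison. With an array left out, its difference ran from -0.57 to -0.44 against mock and from -0.55 to -0.40 against antagomiR-638. With antagomiR-638 against mock it differed by -0.03 (95% interval -0.30 to 0.24).

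TXNRD1, the cytosolic thioredoxin reductase, was read by 2 probes annotated to different transcript records. The first had 773 and 783 in miR-638 cells, 817 and 956 in antagomiR-638 cells and 560.4 and 539 in mock cells, with both treatments above mock. It rose by 0.67 with antagomiR-638 (SE 0.12, 95% interval 0.40 to 0.94, adjusted p = 0.00511 by limma), 1.59-fold, and differed by 0.49 with miR-638 (SE 0.12, adjusted p = 0.0382), which was not called. The call was lost whichever of the 4 antagomiR-638 and mock arrays was left out, at adjusted p of 0.0184 to 0.0473. The second had 802 and 755 in miR-638 cells, 724 and 768 in antagomiR-638 cells and 684 and 567 in mock cells. It was in the same direction, with differences of 0.32 (adjusted p = 0.16) for miR-638 and 0.25 (adjusted p = 0.192) for antagomiR-638.

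HMOX1, the stress-induced heme oxygenase, had 58.2 and 48.4 in miR-638 cells, 65.0 and 70.6 in antagomiR-638 cells and 46.3 and 104 in mock cells. The mock arrays lay on either side of all the others, so that the direction depended on which was used. Its difference from mock with miR-638 was -0.32 with both mock arrays, 0.15 without mock replicate 2 and -0.79 without mock replicate 1. The 95% interval of -0.89 to 0.24 covers changes in both directions.

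Over the 6 arrays, log2 signals of some members ran together, which is given as a description because the points share 3 groups and CHAC1 was below detection on 4 of the 6 arrays. The Pearson correlation of CHAC1 was 0.97 with the first CTH probe and 0.95 with the second, and that of CBS with the second CTH probe was 0.94. CHAC1 ran opposite to the brighter NQO1 probe and to SRXN1, with -0.95 for each. GSS and the first TXNRD1 probe, both highest in antagomiR-638 cells and lowest in mock cells, had 0.96. Outside the pathway, likeness was ranked by the same correlation among probes whose group means spanned at least 1 log2 unit. For CHAC1, with 876 candidates, the 5 most alike were IL12A and MYC (0.996 each), ZFP69B (0.995), PDE4D (0.994) and CEBPG (0.993). MYC differed by 2.13 with miR-638 and by -0.32 with antagomiR-638, both against mock, and CEBPG, a C/EBP family partner of ATF4, by 1.44 and -0.25. For the second CTH probe, with 875 candidates, they were a probe annotated to MIR302C, JUNB, NLRP3 and CREB5 (0.993 each) and BLTP3A (0.991). JUNB, an AP-1 subunit, differed by 0.75 with miR-638 and by -0.32 with antagomiR-638, against mock.

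The other genes of the pathway were taken at their brightest probe from lists written from general knowledge. Against mock, 1.93% of all genes were called higher and 1.13% lower with miR-638, and 5.83% higher and 4.78% lower with antagomiR-638. In miR-638 against antagomiR-638 cells, 7.55% were called higher and 8.28% lower. Before adjustment, limma gave p under 0.05 to 14.9% of all genes as higher and 13.3% as lower with miR-638 against mock. These shares were 20.4% and 18% with antagomiR-638 against mock, and 20.5% and 21.4% with miR-638 against antagomiR-638. Unadjusted counts are given below for some of the lists only, and stand against these shares. In the list of genes that supply cystine and glutamate, 2 of 6 genes rose with miR-638 and 0 fell, with a list median of 0.52. SLC3A2, the heavy chain that carries the cystine transporter to the membrane, had 1665 and 1662 in miR-638 cells and 917 and 989 in mock cells, a rise of 0.79 (adjusted p = 0.00378 by limma). The other SLC3A2 probe differed by 0.66 (adjusted p = 0.0113) and was not called. GOT1, a transaminase that makes and uses glutamate, rose by 0.72 (adjusted p = 0.00681). SLC7A11, the cystine-carrying partner of SLC3A2, was dim and differed by 0.14 with miR-638 (adjusted p = 0.55) and by -0.25 with antagomiR-638 (adjusted p = 0.199). With antagomiR-638, 1 of the 6 fell: SLC1A5, a glutamine transporter, had 176 and 244 in antagomiR-638 cells and 486 and 415 in mock cells, a fall of 1.06 (adjusted p = 0.00196). With miR-638 against antagomiR-638, 3 of the 6 were called higher and 0 lower.

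In the list of the methionine cycle and cysteine breakdown, which surrounds CBS and CTH, 0 of 14 genes were called against mock with either treatment, while at an unadjusted p under 0.05 limma had 1 higher and 5 lower with miR-638, and 2 higher and 2 lower with antagomiR-638. All genes had shares of 14.9% and 13.3% there with miR-638, and 20.4% and 18% with antagomiR-638. Against antagomiR-638, miR-638 cells had 1 called higher and 3 lower. Among 13 genes of glutathione breakdown and recycling, 1 fell with miR-638, ANPEP, an aminopeptidase of the cell surface, by 0.76 (adjusted p = 0.00683). With antagomiR-638 1 rose, GLRX, a glutaredoxin that reduces mixed disulfides of glutathione, by 0.89 (adjusted p = 0.00278). The same count for miR-638 against antagomiR-638 was 2 higher and 2 lower.

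Of 14 glutathione peroxidases and transferases, 0 were called with miR-638 against mock, and before adjustment limma gave p under 0.05 to 1 higher and 1 lower gene. With antagomiR-638, GSTM2, a glutathione transferase, rose by 0.99 (adjusted p = 9.37e-04), though its probe may also read near-identical members of its family. MGST1, the microsomal transferase, fell by 0.67 (adjusted p = 0.00486), while its other probes differed by -0.37 and -0.16 and were not called. For miR-638 against antagomiR-638 the called genes were 0 higher and 2 lower. Before adjustment, limma gave p under 0.05 to 2 higher and 6 lower genes, against 20.5% and 21.4% of all genes. Of 12 thioredoxins, peroxiredoxins and companion enzymes, 1 was called with miR-638: CAT, catalase, had 414 and 404 in miR-638 cells and 783 and 695 in mock cells, a fall of 0.83 (adjusted p = 0.00374). Its other probe differed by -0.42 and was not called. With antagomiR-638 against mock 0 of the 12 were called at their brightest probe, where limma before adjustment gave p under 0.05 to 3 higher genes and 1 lower. The dimmer CAT probe was called higher there, by 0.78 (adjusted p = 0.00906), against 0.53 (adjusted p = 0.0132) at the brighter one. Between miR-638 and antagomiR-638, 0 of the 12 were higher and 2 lower, with 2 higher and 2 lower before adjustment.

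**Figure D3:**
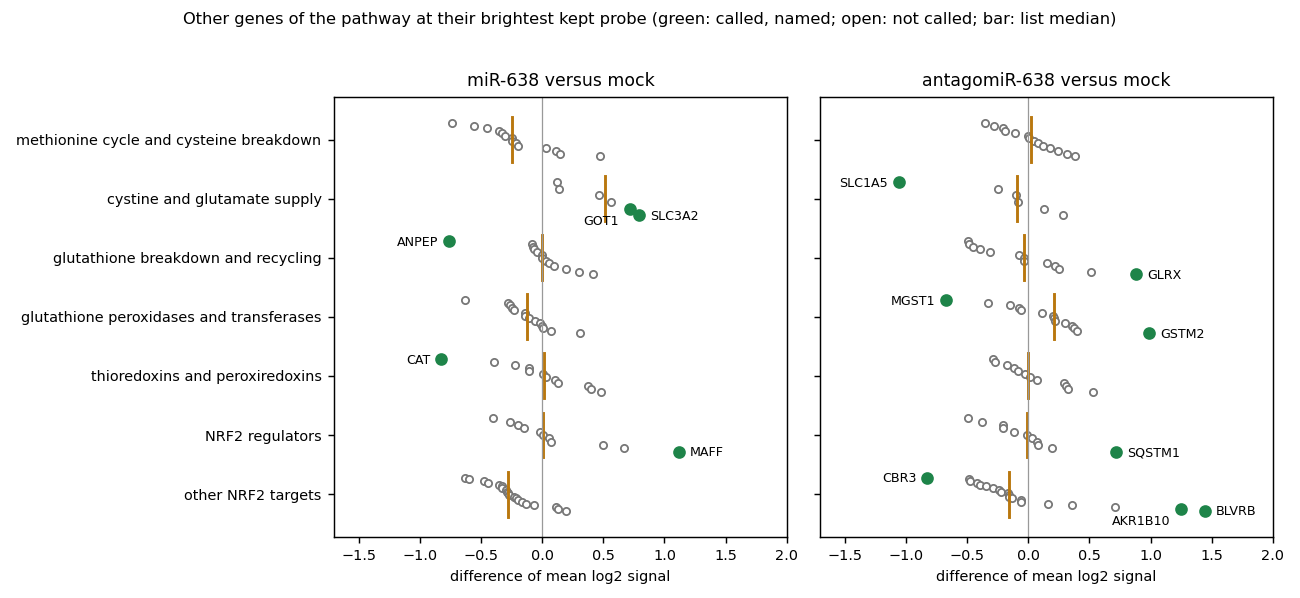
Difference of mean log2 signal against mock (horizontal axis) for the other genes of the pathway, 1 point per gene at its brightest probe, in 7 lists, with miR-638 on the left and antagomiR-638 on the right. Green named points are called, open grey points are not, and the vertical bars are list medians. The median of the other NRF2 targets lies at -0.28 with miR-638 and at -0.16 with antagomiR-638.

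NFE2L2, which encodes NRF2, had 1198 and 1214 in miR-638 cells, 825 and 914 in antagomiR-638 cells and 926 and 783 in mock cells. It differed from mock by 0.49 with miR-638 (adjusted p = 0.0427) and by 0.03 with antagomiR-638 (adjusted p = 0.9), neither called by limma. KEAP1 differed by -0.26 (adjusted p = 0.244) and -0.21 (adjusted p = 0.278), and BACH1, a repressor at the same elements, had no probe that passed the filter. Of the 11 regulators measured, 1 rose with miR-638, MAFF, a small MAF protein that pairs with NRF2, by 1.12 (adjusted p = 0.00246), with 0.61 and 1.13 at its other probes. With antagomiR-638 1 rose, SQSTM1, which draws KEAP1 into autophagy, by 0.72 (adjusted p = 0.00336). Against antagomiR-638, miR-638 cells had 2 regulators called higher and 1 lower.

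Of 20 other NRF2 targets, 0 were called with miR-638 against mock, and at an unadjusted p under 0.05 limma had 0 higher and 9 lower, where 14.9% of all genes were higher and 13.3% lower. With antagomiR-638, 2 rose and 1 fell by the adjusted p. Before adjustment, limma gave p under 0.05 to 4 higher and 7 lower genes, against 20.4% and 18% of all genes. BLVRB, a biliverdin reductase downstream of heme oxygenase, had 245 and 239.5 in antagomiR-638 cells and 77.5 and 80.6 in mock cells, a rise of 1.44 (adjusted p = 3.07e-04). AKR1B10, an aldo-keto reductase with close relatives that its probe may also read, rose by 1.25 (adjusted p = 4.43e-04). CBR3, a carbonyl reductase, fell by 0.82 (adjusted p = 0.00229). Set against antagomiR-638, miR-638 gave 0 higher and 3 lower. Before adjustment, limma gave p under 0.05 to 3 higher and 6 lower genes there, against 20.5% and 21.4% of all genes. Of the 13 genes named in these lists as rising or falling against mock, BLVRB and AKR1B10 kept their call whichever array was left out. SLC3A2, GOT1, ANPEP and CAT lost it whichever of the 6 arrays was left out. The other calls were lost at some array of the groups compared: those of MAFF, GLRX, MGST1 and SQSTM1 whichever of the 4 arrays compared was left out, that of SLC1A5 without mock replicate 1 or antagomiR-638 replicate 1, that of GSTM2 without either antagomiR-638 array, and that of CBR3 without mock replicate 2 or either antagomiR-638 array.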

How the data were processed

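Normalization by the authors used lumi (version not given in the sources used here). Deposited intensity values are linear and background-subtracted (26.2% lie below 0) and already quantile-normalized: sorted columns of the first table differ by at most 0.349, and those of the second by 0. The authors also deposited a detection p-value per probe and array, which moves in steps of 1 in 770.

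The normexp model of limma 3.58.1 (R 4.3.3), which takes the detection p-values, was applied with an offset of 16, followed by quantile normalization and log2. A probe was kept where both arrays of any group had a detection p under 0.05, which left 20145 of 47319. Group means over all 6 arrays were compared by limma (3 residual and 6.31 prior degrees of freedom, two-sided), adjusted by Benjamini-Hochberg over kept probes and called at 0.01. Symbols came from the platform annotation. Promoters and the microRNA came from RefSeq tables of GRCh38.p14. The model was tested on simulated data.

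The members, gene lists and tests were chosen with earlier results of these arrays known. Named were all members, up to 4 called genes of each list with the largest difference in each comparison with mock, NFE2L2, KEAP1, BACH1 and SQSTM1, and the 5 genes most like each of the 2 members of widest fitted range; SLC7A11 was added after its values were seen. Alternatives changed the offset, background step, source table, scaling, filter, threshold, test, arrays fitted and weights, added a replicate block, and left out each array.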

Additional observations from a re-analysis of the deposited data

How the results depend on the processing

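CHAC1 and the first CTH probe are left out here too, and the calls of the other 13 probes are named as a description. Calls lost with an array left out are given above with each probe. Calls over all probes moved with the settings as well, as given below. With miR-638 against mock, the count of member probes called higher (2) was 5 at an adjusted p of 0.05, 4 with an intensity trend and robust shrinkage, 0 with a plain linear model without shrinkage, and 1 to 2 with an array left out; the count called lower (0) was 1 with an offset of 50, 2 at an adjusted p of 0.05 and 2 with the trend. With antagomiR-638 against mock, GSS lost its call with the plain model, and CBS with the floor and with the plain model. The first TXNRD1 probe lost its call with the floor, with no filter on detection and with the plain model. The second CTH probe lost its call with those 3 settings and with an offset of 50. Between miR-638 and antagomiR-638, CBS lost its call with the floor and with the plain model, and the second CTH probe with the plain model. The third CTH probe lost its call with the floor, with no filter and with the plain model. SRXN1 was called lower with an offset of 50 and with the trend, and GSS with the floor. At an adjusted p of 0.05, SRXN1 and the first NQO1 probe were called lower. The cause of these differences was not tested.

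Replicate numbers did not pair the arrays, since deviations of same-numbered arrays correlated at -0.07 to -0.05. With the number as a replicate block, the first TXNRD1 probe and the second CTH probe lost their calls with antagomiR-638 against mock. No other call of the 13 probes changed. Over all probes, miR-638 against mock gave 280 calls, against 475 without the block.

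No member difference changed sign except with an array left out, where small ones did. With miR-638 against mock the leave-one-out values ran from -0.095 to 0.077 and -0.065 to 0.041 for the 2 GCLM probes, and from -0.79 to 0.15 for HMOX1. With antagomiR-638 against mock they ran from -0.19 to 0.053 and -0.36 to 0.15 for the first and the third CTH probes, -0.14 to 0.15 for the first GCLC probe, -0.14 to 0.001 and -0.40 to 0.22 for the NQO1 probes, -0.10 to 0.043 for SRXN1 and -0.52 to 0.43 for HMOX1.

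Over all probes, the 475 calls of miR-638 against mock were 977 with an offset of 50, 26 with the floor, 176 with no filter, 1817 at an adjusted p of 0.05, 1133 with the trend, 206 with only the arrays of both groups, 0 with the plain model and 58 to 206 with an array left out. The 1768 calls of antagomiR-638 against mock were 287 with the floor, 1049 with no filter, 4158 at 0.05, 2754 with the trend, 1 with the plain model and 404 to 1517 with an array left out. The 2552 calls between miR-638 and antagomiR-638 were 680 with the floor, 5035 at 0.05, 0 with the plain model and 777 to 2338 with an array left out. CTH and CHAC1 are dim outside miR-638 cells, so signal over background limits their folds.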
